A study of Mus musculus with 6 samples.

Results

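The genes described here encode the glycolytic pathway and the response to low oxygen. They are 38 mouse genes chosen by name for their roles, of which 34 had a transcript cluster of their own, the unit that the array reports for a gene, among the 19938 genes so measured. Each was read from the cluster that carried its symbol alone, and from the one with the highest mean over the 6 arrays where there were several. Enterospheres are free-floating spheroids of the dissociated muscle layers of the gut, in which enteric neural progenitors grow together with other cells of the gut wall. All samples came from newborn C57BL/6 mice and were in culture for 11 days. The 3 proliferation samples stayed in proliferation medium with EGF and FGF throughout, and the 3 differentiation samples were moved for the last 2 days to a medium without both factors and with ascorbic acid-2-phosphate. Both media were DMEM/F12 with N2 supplement, penicillin, streptomycin and L-glutamine, and B27 supplement, which the labels list for the proliferation medium, was by the methods given to the cells a single time before seeding. The effects of losing the growth factors and of gaining ascorbic acid-2-phosphate cannot be told apart. By the labels each sample pooled the gut of 3 mice, whereas the methods of the study speak of a pair of littermates per experiment. The labels also give 10 ng/mL EGF and 20 ng/mL FGF for the proliferation medium, while the methods give 20 ng/mL of each.

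Glycolysis splits glucose into pyruvate in the cytosol. Glucose enters through transporters and is phosphorylated by hexokinase, and phosphofructokinase 1 then commits it to the pathway. Phosphofructokinase 2 makes and degrades fructose 2,6-bisphosphate, the strongest activator of phosphofructokinase 1. Pyruvate is either reduced to lactate and exported or oxidised in mitochondria. The hypoxia-inducible factors HIF1A and EPAS1 are hydroxylated by the EGLN enzymes and degraded while oxygen is present, and when oxygen is low they induce many glycolytic genes and genes such as Vegfa, Bnip3 and Egln3 itself. Proliferating progenitors are widely known to rely on glycolysis.

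Of the 34 genes, 2 rose and 4 fell in differentiating enterospheres and 28 did not pass the test. Pfkfb4 rose 3.12-fold and Ndrg1 1.63-fold, while Pfkfb3 fell with a log2 difference of -0.83, Slc16a3 with -0.81, Egln3 with -0.70 and Pfkl with -0.61. A gene is said to rise or fall where its adjusted p was under 0.05 in limma, a linear model with moderated variances, with Benjamini-Hochberg adjustment over all 35556 clusters. Every difference is a log2 value, the differentiation mean less the proliferation mean, and 1 unit is a doubling. The 6 calls were 17.6% of the genes measured, where 4.10% of all clusters passed, and 5.86% of the clusters with 1 gene symbol. In the separate directions 5.88% of the genes rose and 11.8% fell, beside 1.95% and 2.15% of all clusters. In 13 genes (38.2%) every differentiation array lay below every proliferation array, and in 5 (14.7%) above, beside 10.4% and 11.8% of all clusters. Of the 34 genes 32 had a mean above the median of all clusters, so the shares of all clusters are not matched for level. When only clusters above that median were tested, 2112 passed (990 higher, 1122 lower), more than the 1459 among all clusters. In that setting 3 of the genes rose and 4 fell. An unadjusted p under 0.05 was found for 15 of the 34 genes, and for 5560 of the 35556 clusters (15.6%). The methods' t-test, uncorrected and at 1.5-fold, called the same 6 genes and Pfkp, and 4.09% of all clusters. The median difference of the 34 genes was -0.17, and that of all clusters was 0.025. A comparison of 3 arrays with 3 has a smallest two-sided exact permutation p of 0.1, so the calls rest on the model. The methods speak of independent experiments, and the labels of cultures divided between both media, but neither says which samples shared an experiment. The p-values measure the spread between these samples, and where cultures were shared that spread may be technical.

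**Figure D1:**
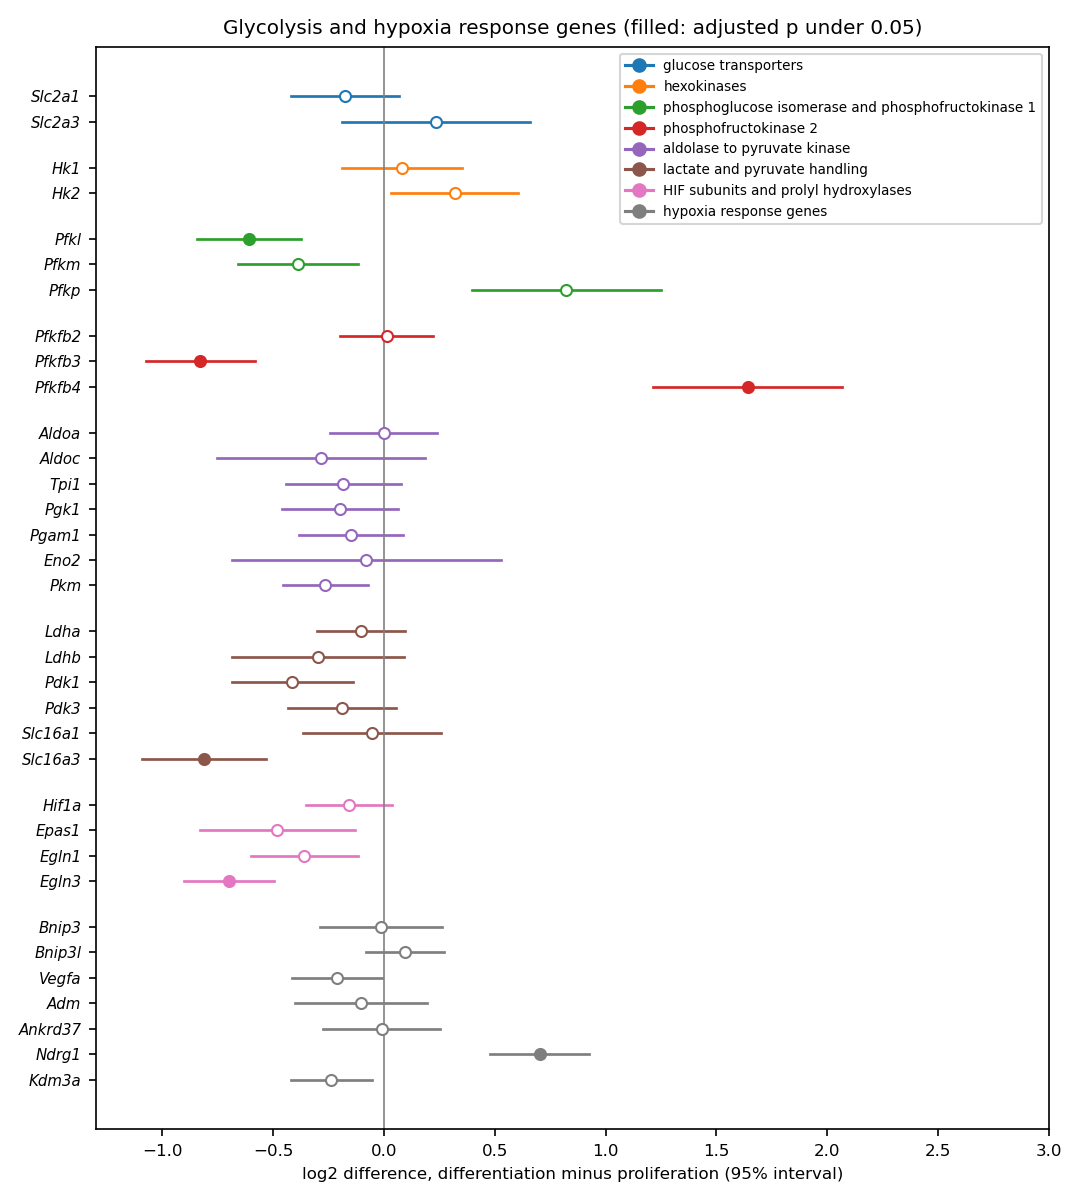
Log2 difference, differentiation minus proliferation, on the horizontal axis for each of the 34 genes, ordered down the vertical axis by role and coloured by it. Points are the estimates from limma with 3 arrays per group, lines their 95% intervals and filled points an adjusted p under 0.05. Pfkfb4 at 1.64 stands farthest to the right and Pfkfb3 at -0.83 farthest to the left, and the genes from Aldoa to Pkm lie between -0.28 and 0.

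Arrays of one group correlated with r from 0.988 to 0.995 over all clusters, and arrays of different groups with r from 0.983 to 0.989. Markers of neurons (7 of 7 measured) and of enteric glia (6 of 6) lay above the median cluster mean of 6.15 on the log2 scale, as did those of fibroblasts (5 of 5), while those of macrophages (0 of 6) lay below it. All 6 markers of dividing cells fell, and their mean log2 level was between 9.04 and 9.88 in proliferation and between 7.23 and 7.46 in differentiation. Of 6 smooth muscle markers 4 rose, the mean level being 6.75 to 6.78 in proliferation and 7.49 to 7.64 in differentiation. Of the 3 markers of interstitial cells of Cajal 1 fell, with mean levels from 10.70 to 11.09 and from 10.06 to 10.23. Among the 7 neuronal markers 1 rose, the mean level being 9.96 to 10.46 and 10.31 to 10.49. The glial markers went both ways, with 1 of 6 higher and 2 lower. Of the markers of fibroblasts (5), endothelial cells (6), macrophages (6), epithelium (5), mesothelium (4) and erythroid cells (2), limma called 0, and 1 endothelial and 1 erythroid marker had an unadjusted p under 0.05. The part of these shifts in the results below was not tested, and in such mixed samples fewer cells of a type and less RNA per cell cannot be told apart.

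The factors HIF1A and EPAS1 bind DNA at the core letters ACGTG or GCGTG, and the bases upstream of the changed genes are shown for that reason, with Ldha as a well-known HIF target that did not pass the test. RefSeq sequences of assembly GRCm38.p6 were given for 30 of the 34 genes (Slc2a3, Epas1, Bnip3l and Ndrg1 had no entry), and the 250 bases before the start farthest upstream were searched on both strands. The windows read 5′ to 3′ toward the start of transcription, with every match on either strand in capitals.
Pfkl, chr10:78009808-78010057, minus strand: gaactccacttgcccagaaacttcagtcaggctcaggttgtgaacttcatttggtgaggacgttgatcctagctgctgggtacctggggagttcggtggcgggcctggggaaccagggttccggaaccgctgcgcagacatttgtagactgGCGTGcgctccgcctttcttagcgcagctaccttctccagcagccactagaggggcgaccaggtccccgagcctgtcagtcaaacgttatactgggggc
Pfkfb3, chr2:11553930-11554179, minus strand: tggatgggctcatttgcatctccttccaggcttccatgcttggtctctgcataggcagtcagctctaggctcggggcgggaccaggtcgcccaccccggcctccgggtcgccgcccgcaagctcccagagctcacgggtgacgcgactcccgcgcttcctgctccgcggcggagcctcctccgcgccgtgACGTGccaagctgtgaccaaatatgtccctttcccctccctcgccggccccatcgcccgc
Slc16a3, chr11:120948817-120949066, plus strand: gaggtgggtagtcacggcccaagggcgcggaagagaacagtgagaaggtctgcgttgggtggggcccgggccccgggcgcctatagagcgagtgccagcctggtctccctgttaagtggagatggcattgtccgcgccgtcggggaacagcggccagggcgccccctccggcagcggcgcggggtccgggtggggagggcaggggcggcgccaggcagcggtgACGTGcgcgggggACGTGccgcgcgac
Egln3, chr12:54203875-54204124, minus strand: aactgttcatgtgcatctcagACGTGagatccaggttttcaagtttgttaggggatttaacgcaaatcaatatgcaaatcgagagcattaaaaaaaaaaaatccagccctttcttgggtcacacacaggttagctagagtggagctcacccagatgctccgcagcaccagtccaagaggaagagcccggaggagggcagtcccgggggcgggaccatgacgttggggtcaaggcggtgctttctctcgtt
Pfkfb4, chr9:108991652-108991901, plus strand: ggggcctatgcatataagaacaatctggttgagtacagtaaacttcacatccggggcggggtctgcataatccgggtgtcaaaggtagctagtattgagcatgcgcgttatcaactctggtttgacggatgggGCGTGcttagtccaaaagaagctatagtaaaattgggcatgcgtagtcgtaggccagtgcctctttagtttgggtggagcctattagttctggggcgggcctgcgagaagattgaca
Ldha, chr7:46845554-46845803, plus strand: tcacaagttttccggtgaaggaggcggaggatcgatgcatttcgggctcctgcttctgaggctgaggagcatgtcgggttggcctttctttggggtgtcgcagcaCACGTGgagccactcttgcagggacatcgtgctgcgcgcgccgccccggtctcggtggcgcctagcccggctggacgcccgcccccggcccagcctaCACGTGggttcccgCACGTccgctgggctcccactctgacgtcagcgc
In the Pfkfb3 window ACGTG began 60 bases before the start, and in that of Slc16a3 it began 27 and 14 bases before it. Egln3 had it 229 bases before the start, while the windows of Pfkl and Pfkfb4 held GCGTG, at 99 and 117 bases. The Ldha window held 5 matches of ACGTG, 4 of them as 2 palindromes that match on both strands. ACGTG stood in 15 of the 30 windows (50%) and GCGTG in 16 (53.3%), and 24 (80%) had at least one of them. Over the windows of all 15563 genes with a cluster the shares were 18.5%, 36.2% and 46.5%. The 34 genes were chosen by name for roles that include the response to HIF, so their higher shares are not a finding of these data. The median log2 difference was -0.18 over the 15 genes with ACGTG and -0.18 over the 15 without. Some of those without ACGTG held GCGTG, so these medians do not compare genes with and without a core. A match of letters is a description of the window and not evidence of binding.

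Of the phosphofructokinase 2 genes one fell and another rose. Pfkfb3 encodes the phosphofructokinase 2 isoenzyme with the strongest synthetic over degrading activity. Its log2 values were 7.48, 7.26 and 7.46 in proliferation and 6.43, 6.61 and 6.66 in differentiation. All 3 differentiation arrays lay below all 3 proliferation arrays, and the gene fell with a log2 difference of -0.83 (standard error 0.10, adjusted p = 0.00923 from limma). Pfkfb4, an isoenzyme of the same family, had log2 values of 7.42, 6.90 and 7.57 in proliferation and 8.90, 8.83 and 9.07 in differentiation. The groups were far apart here too, although proliferation replicate 2 was lower than the others of its group. Pfkfb4 rose with a log2 difference of 1.64 (standard error 0.18, adjusted p = 0.00647), the largest of the 34 genes in either direction. Pfkfb2, the form best known from heart, had log2 values from 7.78 to 7.91 and from 7.77 to 7.96, which overlapped. Its difference was 0.01, with a 95% interval from -0.20 to 0.22.

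Phosphofructokinase 1 is a tetramer of liver, muscle and platelet type subunits. Pfkl, the liver type, had log2 values of 9.09, 8.90 and 9.08 in proliferation and 8.28, 8.46 and 8.51 in differentiation. The values of the groups did not overlap, and Pfkl fell 1.53-fold (log2 difference -0.61, standard error 0.10, adjusted p = 0.0218 from limma). For Pfkm, the muscle type, the values were 9.52, 9.24 and 9.60 against 8.99, 9.14 and 9.07. These groups did not overlap either, but the difference of -0.39 did not pass (95% interval -0.66 to -0.12, adjusted p = 0.142). Pfkp, the platelet type, had log2 values of 9.00, 8.35 and 8.99 in proliferation and 9.60, 9.62 and 9.58 in differentiation. The 3 differentiation arrays were higher and nearly equal, and proliferation replicate 2 was lower than the other two of its group. The difference of 0.82 (95% interval 0.40 to 1.25) had an adjusted p of 0.0599 from limma and did not pass. Without proliferation replicate 2 it was 0.61 with an adjusted p of 0.0225. Of the 6 fits with an array left out Pfkp passed in only that 1, and the adjusted p reached 0.209 in the others.

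**Figure D2:**
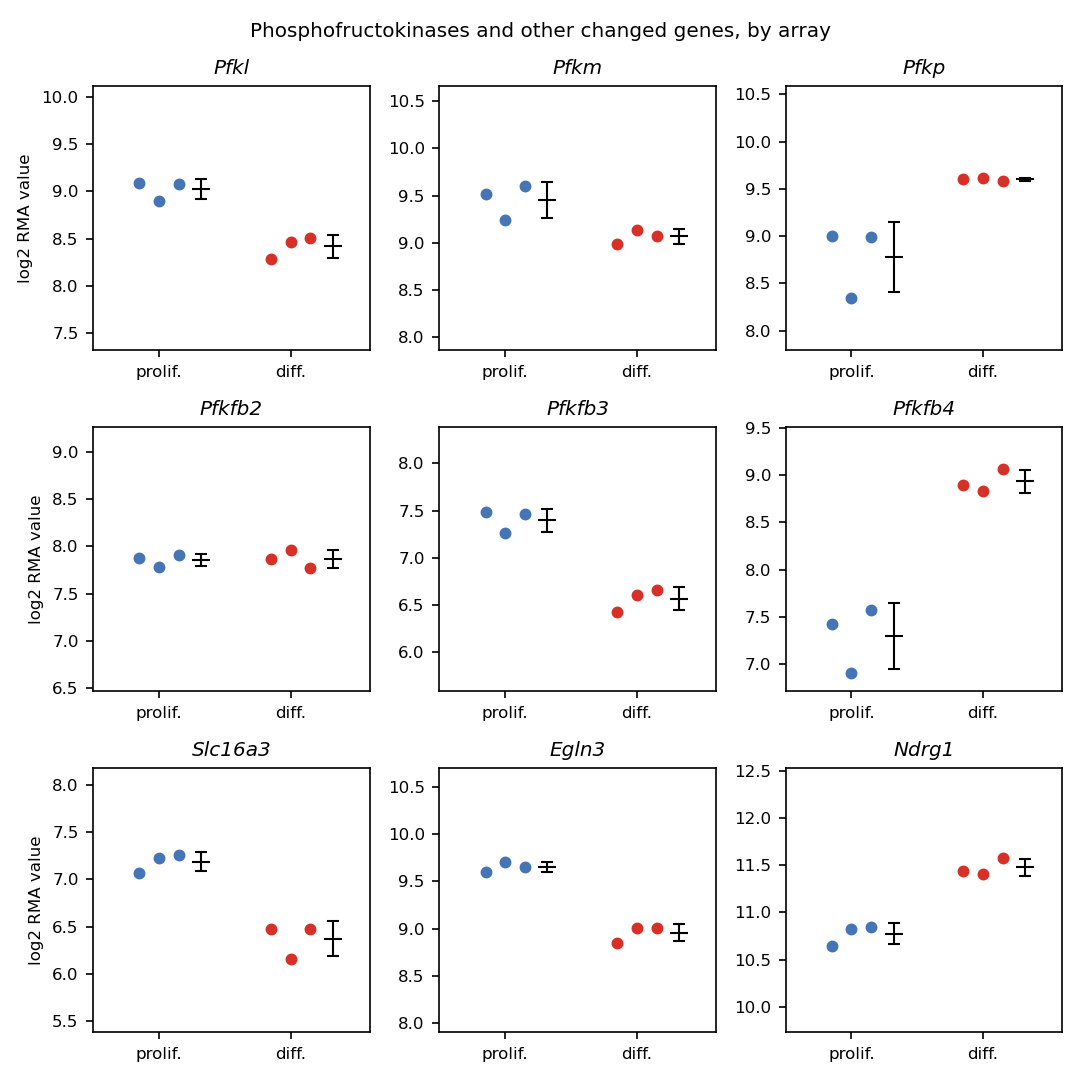
Log2 RMA value on the vertical axis in each of the 3 proliferation (blue) and 3 differentiation (red) arrays for the 6 phosphofructokinase genes and 3 further genes that changed, with the mean and SD in black. All panels span the same number of log2 units around their own middle, so steps compare across panels and levels do not. Pfkl and Pfkfb3 step down, Pfkfb4 steps up from values between 6.90 and 7.57 to values between 8.83 and 9.07, and the groups of Pfkfb2 overlap.

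The entry of glucose showed no change past the test. Slc2a1, the widespread glucose transporter GLUT1 and a known HIF target, had log2 values of 10.13, 9.88 and 10.07 in proliferation and 9.80, 9.79 and 9.97 in differentiation, which overlapped. Its difference was -0.18 (95% interval -0.42 to 0.07), and that of Slc2a3, the neuronal transporter GLUT3, was 0.24 (-0.19 to 0.66). Hk2, the hexokinase that growth factors and HIF induce, had values of 6.07, 6.07 and 6.08 against 6.15, 6.45 and 6.59. Every differentiation array lay above every proliferation array, but the difference of 0.32 (95% interval 0.03 to 0.61) did not pass (adjusted p = 0.261 from limma). The level of Hk2 was low, its proliferation values lying below the median cluster mean of 6.15. Hk1, the constitutive hexokinase, was read from 1 of its 2 clusters, with a difference of 0.08. Clusters close in number mostly belong to genes of one chromosome, but of the 20 neighbours of that cluster in number 0 belong to genes on the chromosome of Hk1. The other cluster, with 20 of 20 such neighbours, had a difference of -0.28 (standard error 0.10, adjusted p = 0.231), so the 2 clusters differ in sign and neither passed.

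From aldolase to pyruvate kinase none of the 7 genes measured passed limma's test, and 1 had an unadjusted p under 0.05. Pkm, pyruvate kinase of most tissues outside the liver, was that gene, with log2 values of 10.89, 10.79 and 10.92 in proliferation and 10.56, 10.58 and 10.65 in differentiation. The groups did not overlap, and the difference was -0.26 (95% interval -0.46 to -0.07, adjusted p = 0.159). Aldoa, the main aldolase of dividing and muscle cells, had a difference of -0.0018 with an interval from -0.24 to 0.24. Its brain isoenzyme Aldoc stood at -0.28 (-0.75 to 0.19), where proliferation replicate 1, at 9.30, was below the other two of its group, at 10.04 and 9.95. Tpi1, which interconverts the triose phosphates, Pgk1, the first step that yields ATP, and Pgam1, which moves the phosphate group, had differences of -0.18, -0.20 and -0.15. Eno2, the neuronal enolase, had a difference of -0.08 with a wide interval from -0.69 to 0.53, and proliferation replicate 2, at 8.63, was below the other two, at 9.58 and 9.48. Intervals of this width leave room for modest changes of either sign. Pgk1 and Pgam1 were likewise read from clusters with 0 of 19 and 0 of 20 neighbours on their own chromosome, and the clusters with such neighbours gave -0.19 and -0.15. Gpi1 and Eno1 were not analysed here, and Gapdh shared all 25 of the clusters that name it with other genes and was given no value.

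At the end of the pathway Slc16a3 fell and the others did not pass. Slc16a3 encodes MCT4, the lactate exporter of strongly glycolytic cells and a HIF target. Its log2 values were 7.07, 7.23 and 7.26 in proliferation and 6.48, 6.16 and 6.48 in differentiation. The groups were separate, and the fall was 1.76-fold (log2 difference -0.81, standard error 0.12, adjusted p = 0.015 from limma). Slc16a1, the more widespread lactate carrier MCT1, had overlapping values and a difference of -0.05 (95% interval -0.37 to 0.26). Ldha, which reduces pyruvate to lactate, ranged from 11.84 to 11.89 in proliferation and from 11.65 to 11.83 in differentiation, a difference of -0.10 (-0.30 to 0.10). Ldhb, the form that favours the reverse reaction, had a difference of -0.30 (-0.69 to 0.09). Pdk1, the kinase by which HIF closes pyruvate dehydrogenase, had log2 values of 6.91, 7.13 and 7.12 against 6.45, 6.69 and 6.77. Its groups did not overlap, but the difference of -0.41 (95% interval -0.69 to -0.14) did not pass (adjusted p = 0.123). Pdk3, another kinase of that complex, stood at -0.19.

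Of the 2 HIF alpha subunits and 2 prolyl hydroxylases among the 34 genes, Egln3 fell and the other three did not pass. In each of the 4 every differentiation array lay below every proliferation array, as in 10.4% of all clusters. Egln3, the prolyl hydroxylase PHD3, had log2 values of 9.60, 9.70 and 9.65 in proliferation and 8.85, 9.01 and 9.01 in differentiation. It fell 1.62-fold (log2 difference -0.70, standard error 0.09, adjusted p = 0.00877 from limma), with little spread in either group. Egln1, the main oxygen sensor PHD2, had log2 values of 9.31, 9.57 and 9.39 against 9.08, 9.15 and 8.96, a difference of -0.36 (95% interval -0.60 to -0.12, adjusted p = 0.129). Epas1, the HIF2 alpha subunit, went from 8.95, 8.72 and 8.39 to 8.17, 8.29 and 8.14. Its proliferation arrays were widely spread, and the difference was -0.48 (95% interval -0.83 to -0.13, adjusted p = 0.159). Hif1a had the smallest difference of the 4, -0.16 (95% interval -0.35 to 0.04). The protein of this subunit is set mainly by its degradation, which arrays do not measure.

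Among the 7 further hypoxia response genes measured, Ndrg1 rose and 6 did not pass. Ndrg1 is induced by hypoxia and in differentiating cells, and is needed by Schwann cells to keep myelin. Its log2 values were 10.65, 10.83 and 10.85 in proliferation and 11.44, 11.41 and 11.58 in differentiation. No value of one group reached the other, and the rise had a log2 difference of 0.70 (standard error 0.09, adjusted p = 0.0114 from limma). Vegfa, the blood vessel growth factor, had values of 9.39, 9.45 and 9.39 against 9.13, 9.31 and 9.14. Kdm3a, a histone demethylase, had 9.03, 9.05 and 9.00 against 8.76, 8.85 and 8.74. In both genes the groups did not overlap, and the differences of -0.21 and -0.24 did not pass (adjusted p = 0.293 and 0.183). Bnip3 and Bnip3l, receptors for the removal of mitochondria, had differences of -0.02 (95% interval -0.29 to 0.26) and 0.10 (-0.08 to 0.27). Their clusters had 0 of 20 neighbours on the chromosomes of these genes, and the clusters with 20 of 20 and 19 of 20 gave 0.03 and 0.10. Adm, the vasodilator peptide adrenomedullin, and Ankrd37, a small ankyrin protein, had differences of -0.10 and -0.01 and means below the median of all clusters. Ero1l, an oxidase of the endoplasmic reticulum, had no cluster under that symbol, but the same gene is annotated under its newer symbol Ero1a, with a difference of 0.05 (adjusted p = 0.856).

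Lists of neighbouring pathways were set beside these genes. Of 17 further glycolysis genes 1 fell (5.88%), about the 5.86% of clusters with 1 symbol that were called. Only 9 of the 17 had a mean above the median of all clusters, so many were measured at a low level. The gene that fell is described next. This was Fbp1, fructose bisphosphatase, which runs the phosphofructokinase step backwards. Its mean log2 value was 7.14 ± 0.19 (SD, n = 3) in proliferation, and 5.87, 6.07 and 6.27 were measured in differentiation. The groups lay apart, and the fall was 2.11-fold (log2 difference -1.07, adjusted p = 0.0108 from limma), but 0 genes of this list passed without differentiation replicate 1. Pdk2 and Pdk4, the remaining kinases of pyruvate dehydrogenase, did not pass, with differences of 0.14 and -0.11.

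In pyruvate oxidation and the citrate cycle 2 of 25 genes rose and 0 fell. These were 8%, beside 4.10% of all clusters and 5.86% of clusters with 1 symbol. An unadjusted p under 0.05 from limma was found for 9 of the 25 genes, and for 5560 of the 35556 clusters (15.6%). Pdp1, the phosphatase that reactivates pyruvate dehydrogenase, had log2 values of 10.24, 10.07 and 10.24 against 10.89, 10.98 and 10.99, a rise of 1.71-fold (adjusted p = 0.00708 from limma). Ogdh, the first subunit of the oxoglutarate dehydrogenase complex, went from 10.80, 10.75 and 10.79 to 11.32, 11.32 and 11.30, a log2 difference of 0.53 (adjusted p = 0.012). Both genes had tightly grouped arrays, but Ogdh did not pass without proliferation replicate 3 or without differentiation replicate 1, which left 1 gene. The median of this list was -0.08, with 19 of the 25 differences below 0. Among clusters above the median, and with averaged clusters, 2 genes of the list were higher and 3 lower. Above the median 2112 clusters were called in all (990 higher, 1122 lower), where the main fit called 1459.

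Of 17 genes of the pentose phosphate pathway and glycogen, 2 rose and 1 fell. These were 17.6%, beside 4.10% of all clusters and 5.86% of clusters with 1 symbol. With each array centred on its median, however, 0 were higher and 2 lower. Pygm, the muscle form of glycogen phosphorylase, fell 1.98-fold (adjusted p = 0.0261 from limma), while Ugp2, which makes UDP-glucose for glycogen, and Taldo1, transaldolase, rose with log2 differences of 0.61 and 0.38 (adjusted p = 0.0453 and 0.0484). The log2 values of Pygm were 9.87, 9.26 and 9.68 in proliferation and 8.45, 8.74 and 8.67 in differentiation, and those of the groups of Ugp2 and Taldo1 did not overlap either. In this list 0 genes passed without proliferation replicate 3 or any one of the 3 differentiation replicates, and 1, H6pd, named here with its value known, without proliferation replicate 1. Pygm and Ugp2 passed without proliferation replicate 2.

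Among 14 further genes of HIF dimerisation, hydroxylation and degradation, such as Arnt, Vhl and Hif1an, limma called 0. None had an unadjusted p under 0.05, none passed the methods' t-test, and the differences ran from -0.19 to 0.21. Egln2 and Hif1an, the remaining HIF hydroxylases, had differences of 0.05 and 0.03 and overlapping groups. Of 39 further hypoxia response genes 4 rose and 4 fell (20.5%, beside 4.10% of all clusters and 5.86% of those with 1 symbol). Of all 39 differences 25 were below 0 and the median was -0.12. The groups lay apart with lower values in 14 genes (35.9%, beside 10.4% of all clusters). They lay apart with higher values in 5 (12.8%, beside 11.8% of all clusters). The balance of calls depended on the setting, with 4 higher and 8 lower among clusters above the median, among clusters with 1 symbol or with averaged clusters. The calls over all genes rose too, from 1459 of 35556 clusters to 2038 of the 21789 with 1 symbol (960 higher, 1078 lower). Above the median 2112 clusters were called (990 higher, 1122 lower), and for averaged clusters no total was counted. Stc2, the secreted glycoprotein stanniocalcin 2, had log2 values of 8.24, 7.11 and 8.21 in proliferation and 10.39, 10.39 and 10.58 in differentiation. It rose 6.06-fold (adjusted p = 0.00713 from limma), and proliferation replicate 2 was the lowest array. Lox, which crosslinks collagen, rose 3.25-fold and Nfil3, a transcription factor of the bZIP family, 2.55-fold (adjusted p = 0.00313 and 0.00316). Car12, a membrane carbonic anhydrase, had log2 values of 11.53, 12.09 and 11.78 against 9.52, 9.84 and 9.86, and fell 4.18-fold (adjusted p = 0.00316). Ak4, a mitochondrial adenylate kinase, fell 2.01-fold (adjusted p = 0.0131) in the cluster used, of whose 20 neighbours 0 lay on the chromosome of Ak4, while its other cluster, with 20 of 20, had a difference of -0.22 (adjusted p = 0.574). Also called were Hmox1, heme oxygenase 1, with a difference of 0.91, P4ha1, a subunit of collagen prolyl hydroxylase, with -0.97, and Narf with -0.77, and these 3 were named with their values known. Without proliferation replicate 3, or without differentiation replicate 1, Hmox1 and Ak4 did not pass and 6 genes did.

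**Figure D3:**
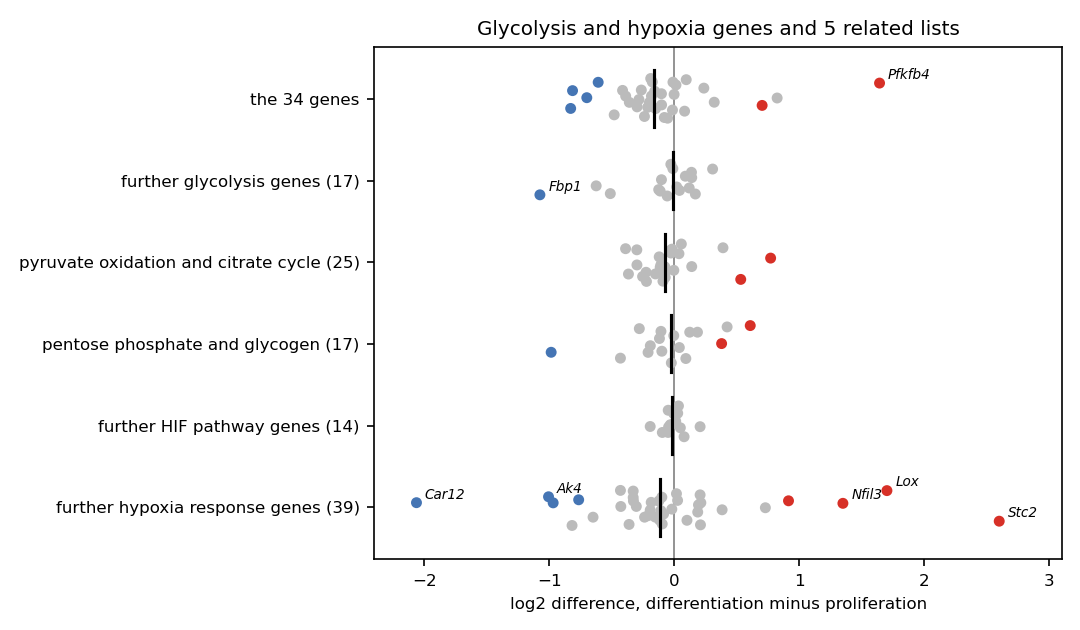
Log2 difference, differentiation minus proliferation, on the horizontal axis for the 34 genes and for 5 lists of related genes on the vertical axis, with the number measured in brackets. Each point is 1 gene (red rose, blue fell, grey did not pass at an adjusted p under 0.05 from limma), black bars are list medians and the vertical scatter carries no value. The medians lie between -0.17 for the 34 genes and -0.01 for the further glycolysis genes, and Stc2 and Car12 mark the ends of the range.

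The calls rested on few arrays. Pfkfb4 passed with each of the 6 arrays left out in turn, with adjusted p from 0.00561 to 0.0446 in limma. Egln3, Pfkfb3, Ndrg1 and Slc16a3 each passed with 4 of the 6 left out and failed without proliferation replicate 3 or differentiation replicate 1, where the adjusted p reached 0.0579, 0.0564, 0.0686 and 0.0756. Pfkl passed only without proliferation replicate 2 or differentiation replicate 3. Genes that fell therefore numbered 0 of 34 without proliferation replicate 3, and 0 without differentiation replicate 1, while those that rose numbered 1 in both cases. With array weights, which ranged from 0.397 to 7.45, 18 of the 34 genes were lower and 3 higher at an adjusted p under 0.05, but so were 15.2% and 20.6% of all clusters, 35.8% together. The fall or rise itself stayed close: the log2 difference lay between -0.79 and -0.65 for Egln3 and between 1.42 and 1.78 for Pfkfb4 over all alternatives.

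**Figure D4:**
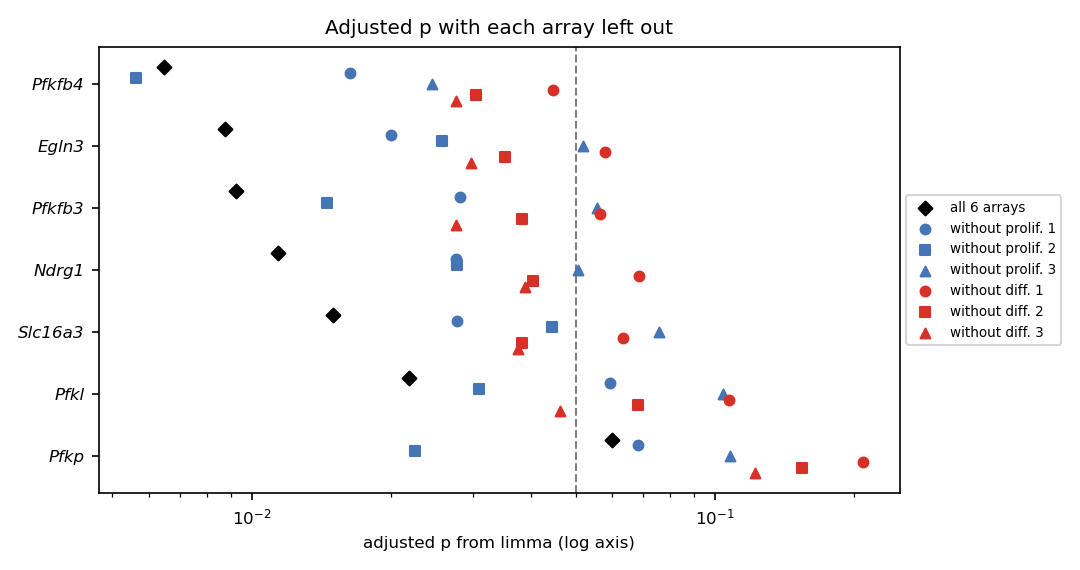
Adjusted p from limma on a log axis for the 6 genes that passed and for Pfkp, on the vertical axis, with all 6 arrays (black) and with each proliferation (blue) or differentiation (red) array left out. The dashed line is at 0.05. The points of Pfkfb4 stay to its left, and those without proliferation replicate 3 or differentiation replicate 1 lie to its right for the other genes.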

How the data were processed

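Expression was measured in 6 samples, 3 per group, each on 1 GeneChip Mouse Gene 1.0 ST array, and groups and replicate numbers come from the labels. The deposited values are log2 values that the authors normalized with RMA, which corrects background, equalises the arrays and summarises the probes of a cluster; the genome build is not given in the sources used here. Normalization of this kind hides a change shared by most genes. Symbols came from GEO's platform annotation, by which 21789 clusters carried 1 symbol, 1621 several and 12146 none. All 35556 clusters entered a two-sided limma test of group (version 3.58.1, R 4.3.3), with no filter. The prior had 2.83 degrees of freedom. Tables and plots were made with pandas 2.3.3 and matplotlib 3.10.9 in Python 3.11.15. Of the 218 entries of all lists 202 were measured. Every measured gene of the 38 is named with its values, and of each related list the called genes, up to the 5 largest. The genes and lists were chosen with earlier results of these data known. Arrays carry no counts, so their number limits the precision. Other settings tried were limma-trend, cyclic loess, median centring, filters on clusters, array weights, averaging the clusters of a gene, a block for the replicate number, the methods' t-test and each array left out. The cluster with neighbours on the gene's own chromosome was an alternative chosen after seeing the data. The fits were tested on simulated data.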

Additional observations from a re-analysis of the deposited data

How the results depend on the processing

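With each array left out in turn, the genes that rose (2 of 34) numbered 1 to 3 and those that fell (4) 0 to 4, and the median difference ran from -0.190 to -0.130. Changed clusters (1459) numbered 294 to 1297, further glycolysis genes (1) 0 to 1, pyruvate oxidation genes (2) 1 to 2, pentose phosphate and glycogen genes (3) 0 to 2 and further hypoxia response genes (8) 6 to 9. Array weights gave 12721 changed clusters, 18 of the 34 genes lower, a median of -0.238, and 11, 13, 9 and 24 changed genes in those 4 lists (higher 5, 3, 3 and 6, lower 6, 10, 6 and 18). After Benjamini-Hochberg adjustment the methods' t-test gave 253 clusters, and of the 34 genes 0 higher and 1 lower, which was Egln3. It gave 0 further glycolysis, 0 pentose phosphate and glycogen and 3 further hypoxia response genes, while its uncorrected form gave 1 pyruvate oxidation gene. That list had 5 changed genes among clusters above the median (2 higher), 4 among clusters with 1 symbol (2 higher) and 5 with the clusters of a gene averaged (2 higher). Among clusters above the median 2112 were called in all, and among those with 1 symbol 2038. With the replicate number as a block 664 clusters changed, 2 of the 34 genes fell, and 0 pentose phosphate and glycogen and 1 pyruvate oxidation genes passed. Same-numbered samples share only a number: their deviations correlated with r from -0.0742 to 0.0898, and 1 of 6 arrays correlated best with its own number. The cause of these shifts was not tested. Further HIF pathway genes stayed at 0 in every setting run.

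Differences that changed sign belong to 9 genes, none called with all arrays. Leaving out an array moved Adm between -0.159 and 0.007, Aldoa between -0.086 and 0.055, Ankrd37 between -0.082 and 0.067, Bnip3 between -0.122 and 0.042, Eno2 between -0.381 and 0.097, Pfkfb2 between -0.033 and 0.061 and Slc16a1 between -0.168 and 0.055. Cyclic loess gave Aldoa 0.0008, median centring gave Pfkfb2 -0.022, and array weights gave Ankrd37 0.076, Pfkfb2 -0.021 and Slc2a3 -0.0044. The cluster on the gene's own chromosome gave Bnip3 0.035 and Hk1 -0.281, and averaged clusters gave 0.010 and -0.100.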
